A study of Mus musculus with 3 samples.

Results

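Genes that mark the astrocyte and oligodendrocyte lineages were examined in embryonic mouse cortex lacking part of the chromatin remodeller gene Snf2l. The genes were taken by name from known lineage markers, with no threshold on a measured value, at a time when earlier results of these data were known. Aldh1l1, Slc1a2, Gfap and Aqp4 stood for astrocytes, and Olig1, Olig2, Pdgfra, Sox10 and Mbp for the oligodendrocyte lineage. These 9 genes are among 19909 with a symbol on the array and were represented by 19 probes, 12 for the 4 astrocyte genes and 7 for the 5 oligodendrocyte lineage genes. Both probes of Aldh1l1 and 2 of the 4 probes of Slc1a2 bore older symbols in the platform annotation (Fthfd and 2900019G14Rik) and were assigned through RefSeq synonyms. Olig1, Pdgfra and Sox10 had 1 probe each.

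Astrocytes and oligodendrocytes are the macroglia of the brain. In the cortex they are made mostly after the neurons, astrocytes from radial glia of the cortical wall and oligodendrocyte precursors at first from progenitors of the ventral forebrain, from which they migrate into the cortex. Precursors are recognised by Olig1, Olig2, Sox10 and the growth factor receptor Pdgfra, and myelinating cells by Mbp. Several of these genes are also used elsewhere in the embryo: Olig2 in ventral progenitors, Pdgfra in mesenchyme and meningeal fibroblasts, and Sox10 in the neural crest and, with Mbp, in Schwann cells.

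Total RNA came from the dissected brain cortex of 129Sv mouse embryos at E15.5 (days of gestation), either Snf2l-Ex6DEL, in which exon 6 of Snf2l (now Smarca1, an ATPase of the ISWI family) is deleted, or wild type. There were 2 RNA samples per genotype. Each of 3 two-colour arrays set mutant RNA against wild-type RNA: replicates 1 and 2 held the same pair of samples with the dyes exchanged (pair 1), and replicate 3 held the other pair (pair 2), so that n = 2 pairs. Whether a sample was 1 embryo or a pool, and how the deletion was driven, was not stated in the labels used here.

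The values are log2 ratios of the array's channels, with array medians of 0.009, 0 and 0.001. They are given here as mutant over wild type, the likely reading of labels that put wild type first and of a title that names mutant versus control; the numerator is not stated, and if it were wild type each sign would turn. Each array had 1 value shared by many probes (its median), held by 11.7%, 16.6% and 21.9% of all probes on replicates 1 to 3, and a spot at that value was counted as having no measured ratio. Smarca1, the targeted gene, read -0.02, 0.36 and 3.11 on replicates 1 to 3 from 1 probe, whose place relative to exon 6 is not given, so that it does not check the labels. The table holds ratios and no brightness, so that the labelled tissue could not be set against levels of its markers. The number of arrays limits the precision. In a bulk sample, fewer cells of a type and less RNA per cell cannot be told apart.

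In the comparison of mutant with wild type over the 2 pairs, 0 of the 9 genes passed limma's test. It was run over all 28332 features (genes or, where a probe had no symbol, probes) with Benjamini-Hochberg adjustment, and 0% of features passed at an adjusted p of 0.05. Without adjustment, 715 features and 0 of the 9 genes were past a p of 0.05. The lowest limma adjusted p over all features was 0.852. Where this value recurs below, it is that lowest value and not evidence that a gene was unchanged. Within pair 1, 3 of the 5 oligodendrocyte lineage genes stood apart. Sox10, Pdgfra and Mbp were far below 0 on both dye-exchanged arrays, whereas the astrocyte genes and both Olig genes stayed closer to 0, apart from Aqp4 on replicate 2. Pair 2 did not repeat this: Pdgfra was above 0 there, and Sox10 and Mbp had no measured ratio.

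**Figure D1:**
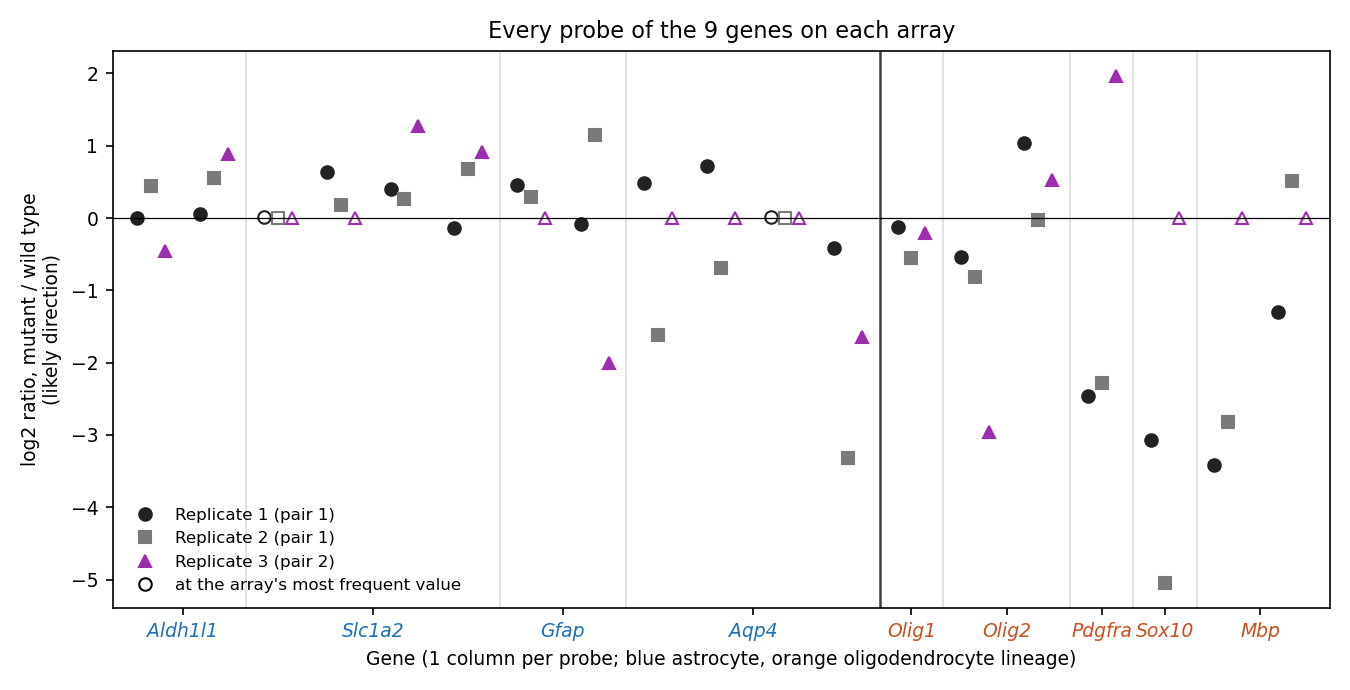
Log2 ratio of mutant over wild type (likely direction, vertical axis) for each of the 19 probes, grouped by gene, with 1 symbol per array; open symbols are spots at the array's most frequent value. The filled symbols farthest below 0 belong to Sox10 (-5.04 and -3.07), Mbp (-3.41), Aqp4 (-3.32) and Olig2 (-2.96), and on replicate 3 (triangles) 9 of 19 probes are open.

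Aldh1l1, a folate enzyme found throughout the astrocyte population, was slightly above 0 on every array. Its ratios, averaged over 2 probes, were 0.03, 0.50 and 0.22 on replicates 1 to 3, with a mean over the pairs of 0.24 ± 0.22 (n = 2 pairs, moderated SE of limma, adjusted p = 0.852). Its probes lay close together in pair 1, at -0.001 and 0.05 on replicate 1 and at 0.449 and 0.549 on replicate 2. On replicate 3 they took opposite signs, -0.455 and 0.888, so that the sign of the average in pair 2 rests on which probe is read.

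Slc1a2, the main glutamate transporter of astrocytes, was the other gene above 0 on all 3 arrays. It read 0.23, 0.28 and 0.55, with a mean of 0.40 ± 0.24 (n = 2 pairs, SE and adjusted p = 0.852 from limma). Of its 4 probes, 1 was at the most frequent value on every array and pulled these averages towards 0. Over the probes with a measured ratio the gene read 0.30, 0.38 and 1.09. The 2 probes measured on replicate 3, at 1.27 and 0.91, were both higher there than on either array of pair 1.

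Gfap, the intermediate filament of astrocytes, did not keep its sign between the pairs. It read 0.18 and 0.72 in pair 1 and -1.002 in pair 2, with a mean of -0.28 ± 0.55 (n = 2 pairs, SE and adjusted p = 0.916 from limma). The value of pair 2 came from a single measured probe at -2.01, the other being at the most frequent value. That same probe read -0.09 and 1.15 in pair 1, so that it differed between the dye-exchanged arrays as well.

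Aqp4, the water channel of astrocyte end-feet, differed most between the arrays of 1 RNA pair among the astrocyte genes. It read 0.20 on replicate 1, -1.41 on replicate 2 and -0.41 on replicate 3, with a mean of -0.51 ± 0.23 (n = 2 pairs, SE and adjusted p = 0.852 from limma). The gap of 1.61 between replicates 1 and 2, which held the same RNA, was wider than that of 80.0% of all features, against a median gap of 0.64. Of its 4 probes, 1 had no measured ratio on any array and 3 had none on replicate 3. The remaining probe read -0.41, -3.32 and -1.64, below 0 on every array, while the other measured probes were above 0 on replicate 1 and below 0 on replicate 2.

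Olig1 and Olig2 are paralogous basic helix-loop-helix factors that lie near each other on mouse chromosome 16, with 1 gene model between them in the RefSeq table. Olig2 specifies oligodendrocyte precursors, and Olig1 acts in their maturation. Olig1 was below 0 on all 3 arrays, at -0.13, -0.55 and -0.21, the only one of the 9 genes to be so. Its mean was -0.27 ± 0.22 (n = 2 pairs, SE and adjusted p = 0.852 from limma). It was within 1.5-fold of no change on each array.

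Olig2 read 0.25, -0.42 and -1.22, with a mean of -0.65 ± 0.45 (n = 2 pairs, SE and adjusted p = 0.852 from limma). Its 2 probes disagreed. One read -0.54, -0.81 and -2.96, below 0 throughout, and the other 1.04, -0.03 and 0.52. On replicate 3 they were 3.48 apart, more than the probes of 91.6% of the 6685 genes with several probes, whose median range on that array was 1.13. The probes thus gave Olig2 opposite signs on replicates 1 and 3.

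Pdgfra, the receptor for platelet-derived growth factor that marks oligodendrocyte precursors, had the ratios most at odds between the pairs. It read -2.47 on replicate 1 and -2.28 on replicate 2, which is 5.53-fold and 4.86-fold lower in the mutant, and 1.96 on replicate 3, which is 3.90-fold higher. The dye-exchanged arrays were only 0.19 apart, whereas pair 1 and pair 2 were 4.34 apart, a gap larger than that of 97.5% of all features. Its mean over the pairs was -0.21 ± 1.52 (n = 2 pairs, SE and adjusted p = 0.997 from limma). The sign of Pdgfra thus depended on which pair of samples was read.

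Sox10, a transcription factor needed for oligodendrocyte differentiation and for the neural crest, had the lowest ratios of the 9 genes. It read -3.07 on replicate 1 and -5.04 on replicate 2. Only 3.0% and 0.5% of features were lower on those arrays. On replicate 3 its 1 probe was at the most frequent value, so that pair 2 gave no ratio. The fitted mean of -2.03 ± 1.42 (n = 2 pairs, SE and adjusted p = 0.852 from limma) took that spot as a value close to 0. With such spots left out, Sox10 was measured in 1 pair and had no test.

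Mbp, the myelin basic protein, read -2.35 and -1.16 in pair 1, and both of its probes were at the most frequent value in pair 2. One probe was low on both arrays of pair 1, at -3.41 and -2.83. The other read -1.30 on replicate 1 and 0.51 on replicate 2, and the probes were 3.34 apart on replicate 2. The fitted mean was -0.88 ± 0.64 (n = 2 pairs, SE and adjusted p = 0.852 from limma), again with unmeasured spots entered as values. Like Sox10, Mbp was measured in 1 pair only.

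A threshold of 1.5-fold in the same direction gave a count that needs no estimate of spread. On all 3 arrays, 0 of the 9 genes were past it in either direction, where 1.73% of all features were lower and 1.12% higher. On both arrays of pair 1, 3 of the 5 oligodendrocyte lineage genes were past it below 0 (Sox10, Pdgfra and Mbp), and 0 of the 4 astrocyte genes, against 9.17% of all features. Above 0 there were 0 of 9 genes, against 5.55% of all features. On replicate 3, Gfap and Olig2 were past it below 0, against 22.3% of all features, and Pdgfra above 0, against 19.5%. That array shows a share of 2 of 9 and 1 of 9, close to those of the whole table.

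The mean of the 4 astrocyte genes was above that of the 5 oligodendrocyte lineage genes in pair 1 and slightly below it in pair 2. This holds for these 9 genes: in pair 1 the medians of 30 other astrocyte genes (-0.63 and -0.49) were below those of 24 other precursor genes (-0.17 and 0.06). The 4 astrocyte genes averaged 0.16, 0.02 and -0.16 on replicates 1 to 3, and the 5 oligodendrocyte lineage genes -1.55, -1.89 and 0.11. The difference, astrocyte minus oligodendrocyte lineage, was thus 1.71 and 1.91 on the arrays of pair 1 and -0.27 in pair 2. Its mean over the pairs was 0.77 with an SD of 1.47 between them (n = 2 pairs), so that the difference is smaller than the spread of the pairs. Without replicate 3 it was 1.81. Medians in place of means gave 2.54, 1.55 and -0.10.

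**Figure D2:**
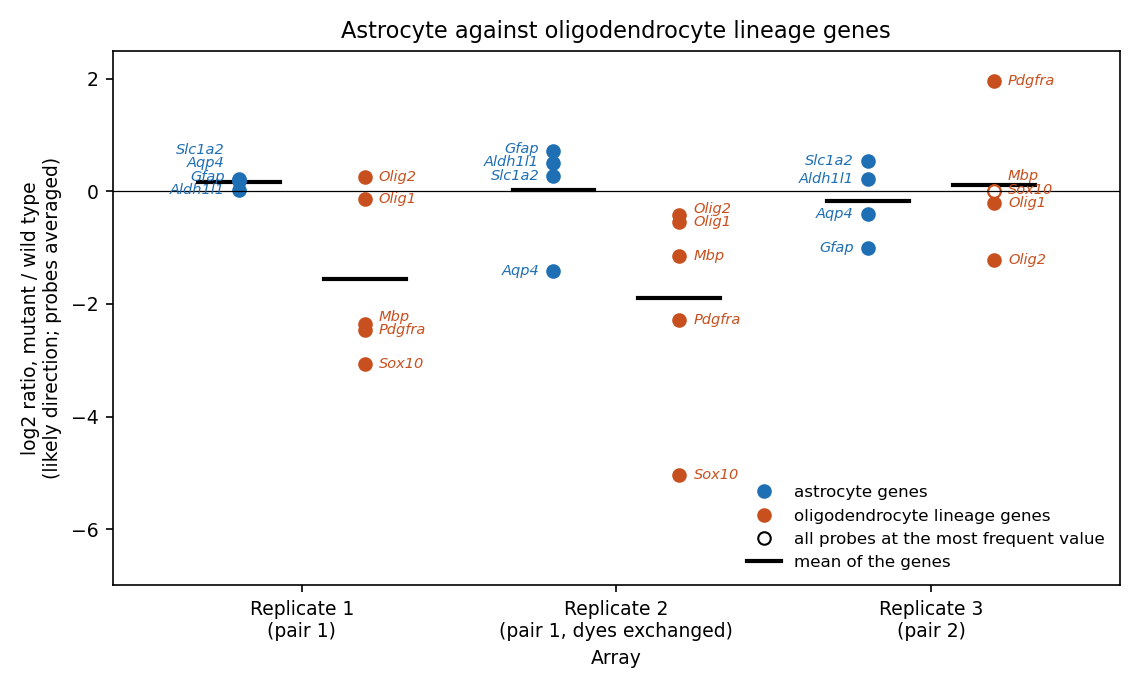
Log2 ratio of mutant over wild type (likely direction) of each gene on each array, with the astrocyte genes in blue, the oligodendrocyte lineage genes in orange, black bars at the mean of each set and open circles for genes with no measured probe. The bars lie at 0.16 and -1.55 on replicate 1 and at 0.02 and -1.89 on replicate 2, and on replicate 3 at -0.16 and 0.11.

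Within pair 1 the contrast rested on 3 of the oligodendrocyte lineage genes more than on any astrocyte gene. On replicate 1, Sox10, Pdgfra and Mbp lay between -3.07 and -2.35, while Olig1 and Olig2 lay at -0.13 and 0.25, beside the astrocyte genes at 0.03 to 0.23. On replicate 2 the sets also had Aqp4 at -1.41 on the astrocyte side, below Mbp at -1.16. Leaving out Sox10 lowered the difference to 1.33 and 1.13 on these arrays, and leaving out any other gene kept it between 1.48 and 2.39. In pair 2 its sign turned on single genes: it was 0.19 without Pdgfra and 0.01 without Gfap, and between -0.60 and -0.19 without any of the others. Over measured spots alone it was 1.75, 1.82 and -0.76, the last from 4 astrocyte and 3 oligodendrocyte lineage genes.

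**Figure D3:**
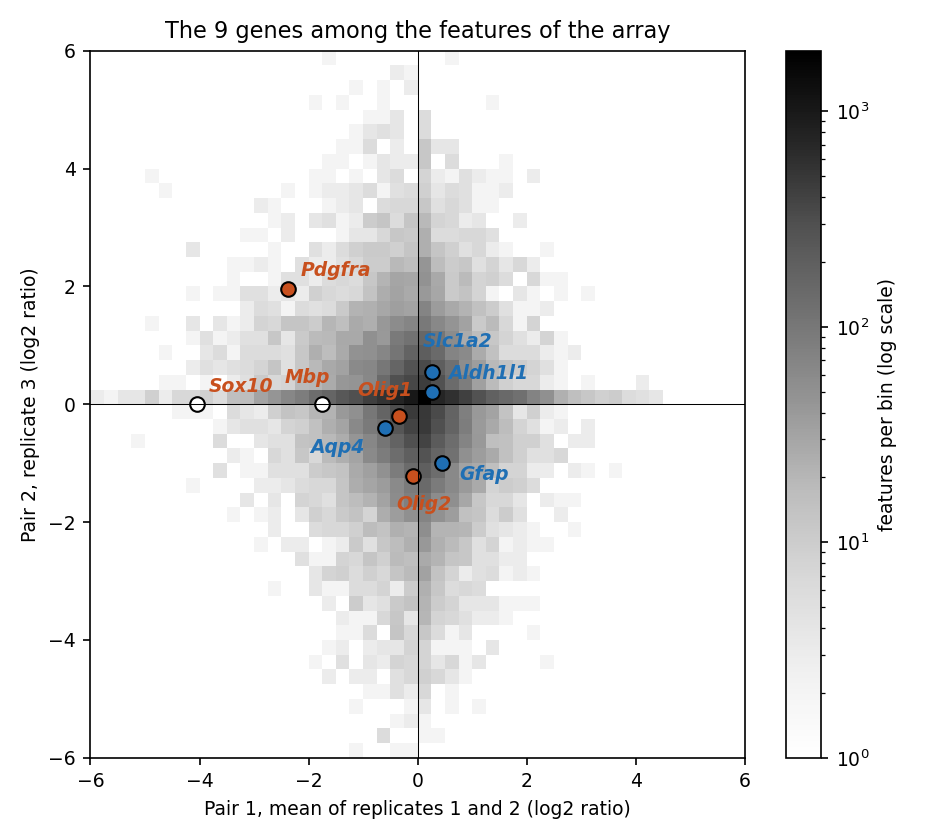
Mean log2 ratio of pair 1 (horizontal axis) against the log2 ratio of pair 2 (vertical axis) for the features of the array (grey shading, features per bin on a log scale, 55 features outside the axes) with the 9 genes marked, astrocyte genes in blue, oligodendrocyte lineage genes in orange and open circles for genes unmeasured in pair 2. Pdgfra lies at -2.37 and 1.96, Sox10 and Mbp lie on the line of unmeasured spots at -4.05 and -1.75, and the other 6 genes lie between -0.60 and 0.45 in pair 1.

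Unmeasured spots were more frequent among the probes of these genes in pair 2 than in pair 1. Of the 19 probes, 2 were at the most frequent value on replicate 1, 2 on replicate 2 and 9 on replicate 3, where the share was 47.4% against 21.9% of all probes. On replicate 3 these were 6 of the 12 astrocyte probes and 3 of the 7 oligodendrocyte lineage probes. In pair 1 all 7 oligodendrocyte lineage probes had measured ratios on both arrays, as did 10 of the 12 astrocyte probes. Replicate 3 thus gave measured ratios for 10 probes of 7 genes.

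Promoter windows of 5 of the 9 genes were found in RefSeq (GRCm38.p6), running from 250 bases before to 50 bases after the start of the gene. Those of Pdgfra and Slc1a2 are printed because these genes stood for the contrast, the first with the ratios that changed most between the pairs and the second with a ratio above 0 on each array. Capitals mark matches to the E-box CANNTG, the core recognised by basic helix-loop-helix factors such as Olig1 and Olig2. The window of Pdgfra is chr5:75152001-75152300 on the + strand and that of Slc1a2 is chr2:102706188-102706487 on the + strand, both written 5′ to 3′.
Pdgfra: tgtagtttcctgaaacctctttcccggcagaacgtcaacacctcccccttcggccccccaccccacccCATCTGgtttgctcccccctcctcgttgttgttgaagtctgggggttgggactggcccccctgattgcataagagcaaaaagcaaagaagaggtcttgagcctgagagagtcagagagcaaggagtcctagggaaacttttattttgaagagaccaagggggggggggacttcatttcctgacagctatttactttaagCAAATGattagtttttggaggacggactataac
Slc1a2: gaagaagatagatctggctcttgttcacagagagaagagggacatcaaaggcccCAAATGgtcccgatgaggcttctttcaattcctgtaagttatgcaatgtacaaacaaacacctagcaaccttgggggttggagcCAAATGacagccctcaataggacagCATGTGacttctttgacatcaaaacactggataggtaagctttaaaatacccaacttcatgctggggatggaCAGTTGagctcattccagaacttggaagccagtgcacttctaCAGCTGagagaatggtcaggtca

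The Pdgfra window held 2 E-box matches and the Slc1a2 window 5, against a median of 1 over the 32851 windows of the table, of which 72.3% held at least 1. Aldh1l1 had 1 match, and Gfap and Olig2 had 0. The SOX motifs ACAAAG and ACAATG, searched on both strands, were found in 18.7% and 12.6% of all windows. Among the 5 windows, that of Olig2 held 1 match to ACAATG and the others held 0 of either. These matches describe letters, not binding, and 0 matches says only that the letters are not in the window.

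Further genes of the same lineages, and of cell types that share their markers, were read from 6 lists of 141 different genes, of which 129 were measured. Fabp7 is on both the astrocyte and the Schwann cell list. Of the 129, 0 passed the test. The first list held 30 other astrocyte genes. Their medians were -0.63, -0.49 and 0.24 on replicates 1 to 3, beside 0.01, 0 and 0.001 for all features. On both arrays of pair 1, 12 of 30 were past 1.5-fold below 0 and 2 above 0 (9.17% and 5.55% of all features), and of the 12, 6 were past it above 0 on replicate 3, as were 29.6% of all features that low in pair 1. Among those 6, named after their values were seen, S100b, a calcium-binding protein of astrocytes that Schwann and cartilage cells also make, read -3.95, -5.82 and 2.75. Gjb6, a connexin of mature astrocytes, read -3.03, -2.88 and 1.73.

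Other astrocyte genes kept 1 sign on all arrays. Nfia, a transcription factor that starts gliogenesis, read 1.04, 0.66 and 1.04, with a mean of 0.94 ± 0.23 (n = 2 pairs, SE and adjusted p = 0.852 from limma). Fgfr3, a receptor of astrocyte progenitors, read 0.67, 0.52 and 0.27, and Mlc1, a membrane protein of astrocyte end-feet, 0.36, 1.07 and 0.15. Below 0 throughout, among genes with no spot at the most frequent value, were Acsl6, an acyl-CoA synthetase, at -0.32, -0.12 and -0.53, and the amino acid transporter gene Slc7a10 at -0.69, -1.26 and -0.05. Tnc, a matrix glycoprotein of radial glia and astrocytes with such a spot, was below 0 as well at -0.87, -1.40 and -0.51 (named after its values were seen).

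Other genes of oligodendrocyte precursors did not, as a list, follow Sox10 and Pdgfra. Their medians were -0.17, 0.06 and -0.12 over 24 genes. On both arrays of pair 1, 1 gene (4.2%) was past 1.5-fold below 0 and 7 (29.2%) above 0, against 9.17% and 5.55% of all features. The 1 gene below was Matn4, named after its values were seen, at -4.11, -3.01 and -0.005. Ptprz1, a receptor phosphatase of precursors and radial glia, read 1.34, 0.61 and 0.79, Xylt1, which starts proteoglycan chains, 0.93, 1.41 and 2.44, and Rlbp1, a retinoid-binding protein, 1.82, 1.54 and 0.46. The 3 named genes below 0 on all arrays were the proteoglycan genes Bcan (-0.48, -0.53 and -2.20) and Vcan (-0.50, -1.73 and -0.31) and the adhesion molecule gene Cntn1 (-0.40, -0.29 and -0.91). Their limma adjusted p-values were 0.852 each.

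Other myelin genes were more often below 0 than above it, with some on each side. Their medians were -0.91, -0.07 and -0.16 over 25 genes. On both arrays of pair 1, 9 genes were past 1.5-fold below 0 and 3 above 0 (9.17% and 5.55% of all features). Of the genes measured on each array, 20 were below 0 and 5 above on replicate 1. The counts were 14 and 10 on replicate 2, and 18 and 5 on replicate 3. Mal, a myelin proteolipid, read -3.51, -3.18 and -1.49, with a mean of -2.42 ± 0.68 (n = 2 pairs, SE and adjusted p = 0.852 from limma). Lpar1, a lysophosphatidic acid receptor, read -1.95, -2.17 and -0.74, and Car2, a carbonic anhydrase, -1.95, -2.11 and -0.51. Sirt2, a deacetylase of myelinating cells, was above 0 at 0.14, 0.05 and 0.26. Other genes of this list are named after their values were seen. The 3 past 1.5-fold above 0 in pair 1 were Mog (1.47, 1.28 and -0.12), Omg (0.73, 0.62 and -0.12) and Fez1 (0.60, 0.82 and -0.39). Mag read 0.072, -0.015 and -0.824, and Mobp -0.026, 0.005 and -1.66, both near 0 in pair 1.

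**Figure D4:**
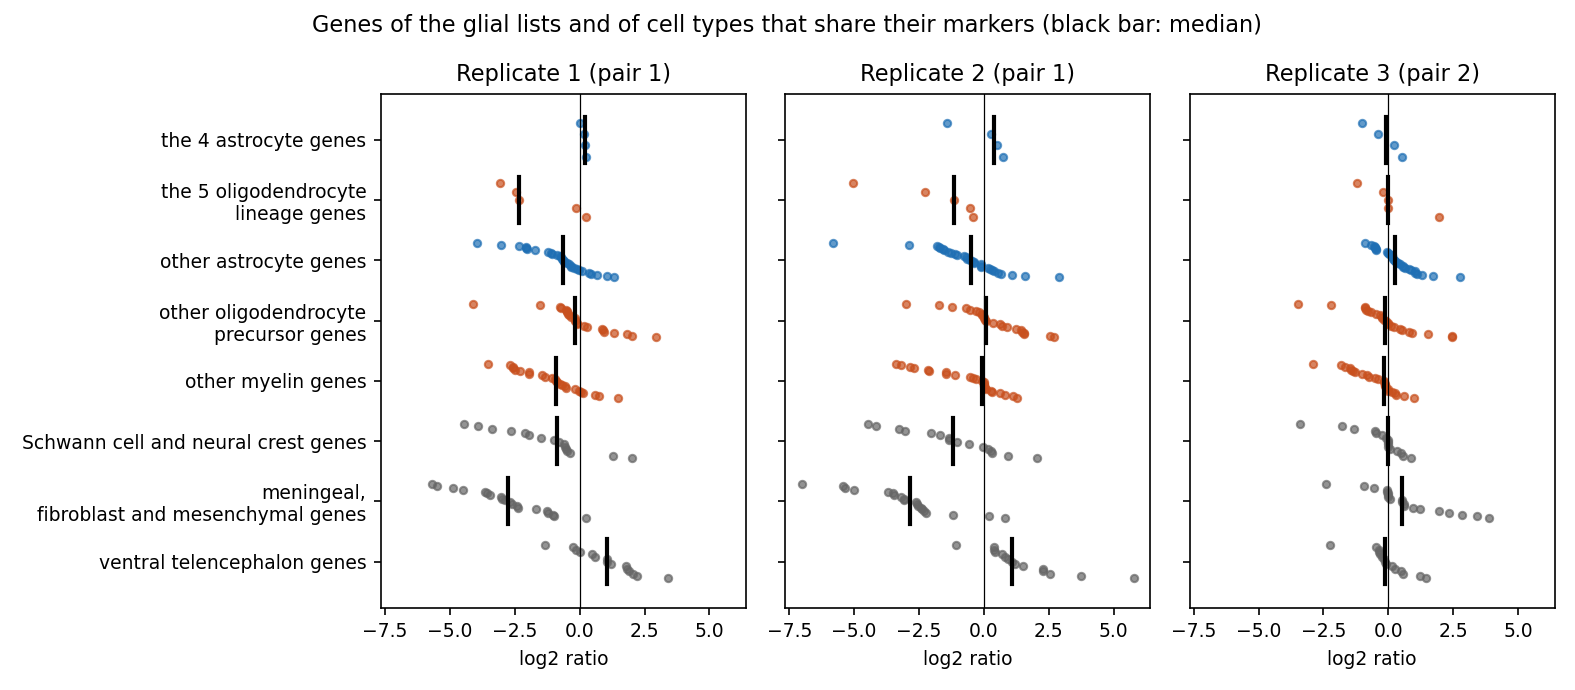
Log2 ratio of mutant over wild type (likely direction, horizontal axis) of each measured gene on each array, by list, with astrocyte lists in blue, oligodendrocyte lineage lists in orange, other cell types in grey and a black bar at each list's median. In pair 1 the meningeal, fibroblast and mesenchymal list has its medians at -2.77 and -2.85, and on replicate 3 at 0.52, while the ventral telencephalon list has its medians at 1.07, 1.07 and -0.13.

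Markers of mesenchyme and meninges, which share Pdgfra, were mostly low on the same arrays. Of 20 meningeal, fibroblast and mesenchymal genes, 18 were past 1.5-fold below 0 on both arrays of pair 1, against 9.17% of all features. Of the 18, 9 were past it above 0 on replicate 3, against 29.6% of all features that low in pair 1. The list's values ranged from -5.68 to 0.26 on replicate 1, from -7.01 to 0.82 on replicate 2 and from -2.41 to 3.89 on replicate 3. Pdgfrb, the related receptor of pericytes and mesenchyme, read -1.21, -1.18 and -0.02, and Slc6a13, a transporter of the leptomeninges, -2.98, -3.07 and -0.57. These 2 were named for keeping 1 sign on all arrays, which most of the list did not. On replicate 3, 13 of the 19 genes measured there were above 0 and 6 below. Among those above, named after their values were seen, Col3a1 read -3.01, -3.09 and 2.35, and Lum -4.88, -5.02 and 3.89. The part of these tissues in the ratio of Pdgfra was not tested.

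Schwann cell and neural crest genes had medians of -0.88, -1.19 and 0.001, the last set by spots without a measured ratio, and -0.23 over the 12 genes measured there. Of 16 genes, 8 were past 1.5-fold below 0 on both arrays of pair 1 and 1 was past it above 0 (9.17% and 5.55% of all features). The list, which shares Sox10 and Mbp, was thus mostly below 0 in pair 1, with 14 genes below 0 on replicate 1 and 11 on replicate 2. Foxd3, a factor of early neural crest, read -2.63, -3.06 and -1.77, and the myelin gene Pmp22, of peripheral nerve, -3.36, -3.27 and -0.07. Gfra3, a receptor subunit of sensory neurons, read -0.97, -1.04 and -1.30, while Pou3f1, a factor of Schwann cells and of cortical neurons, read 1.30, 0.91 and 0.86. The list's values ranged from -4.47 to 2.01 on replicate 1, from -4.45 to 2.04 on replicate 2 and from -3.42 to 0.86 on replicate 3. Their part in the ratios of Sox10 and Mbp was not tested.

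Genes of the ventral telencephalon, where the first oligodendrocyte precursors and Olig2-expressing progenitors arise, lay above 0 in pair 1. Their medians were 1.07, 1.07 and -0.13 over 15 genes, of which 9 were below 0 and 6 above 0 on replicate 3. On both arrays of pair 1, 8 (53.3%) were past 1.5-fold above 0 and 1 (6.7%) below, against 5.55% and 9.17% of all features. Dlx2, a homeobox gene of ventral progenitors, read 1.07, 1.07 and 0.50, Gad2, a GABA-synthesising enzyme, 1.80, 0.79 and 0.58, and Isl1, of striatal neurons, 1.07, 0.40 and 1.22. Ebf1, a factor of striatal neurons, was below 0 throughout at -1.33, -1.10 and -2.25. Olig2, at 0.25 and -0.42 in pair 1, was thus lower on those arrays than the ventral list's median. On replicate 1 both probes were below that median, but by how much rests on which probe is read. The first, at 1.04, lay close to the median, and the other read -0.54.

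The genes with the 3 ratios nearest to each of the 9 genes were sought among 15006 other genes with a measured value on every array, by Euclidean distance over the arrays. They were Sf3b6 for Aldh1l1 (distance 0.031), Zc3hav1l for Slc1a2 (0.033), Elfn2 for Gfap (0.052) and Sash3 for Aqp4 (0.144). For Olig1, Olig2 and Pdgfra they were Syt4 (0.077), Nop9 (0.026) and Arhgef19 (0.152). None was another of the 9 genes, and none was sought for Sox10 and Mbp, which lacked a measured ratio in pair 2. With 3 values per gene such likeness is a description only.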

How the data were processed

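RNA was prepared with RNeasy mini columns, per the labels' protocols. The deposited values were read as log2 ratios of the channels, already centred by the authors: values between 1 and 5 from the most frequent value fell on log2 of whole numbers up to 32 (within 0.0015) in 3.96%, 5.27% and 7.00% of cases, against 1.29%, 0.87% and 1.02% on a grid shifted aside. Scanner, background correction, normalization and numerator are not given in the sources used here. The platform annotation gave 1 symbol to 30457 of 38880 probes, several to 0 and none to 8423. Of the 21476 symbols, 12795 were current in RefSeq (GRCm38.p6, used for names and promoter windows), 8317 were updated through a synonym and 364 kept. Probes of a gene were averaged, giving 28332 features. Replicates 1 and 2 were averaged to 1 pair and fitted with replicate 3 in limma 3.58.1 under R 4.3.3 (lmFit, eBayes, 2.08 total degrees of freedom). The code was run on simulated data with far less noise than these arrays and no added difference between pairs. That run does not show what the test could find at the spread of these data. The p-values of the main fit rest on the spread between these pairs, moderated by limma with the spread over all features. The spread between replicates 1 and 2 does not enter them. The 9 genes, the lists and the named genes (per list, up to 3 above 0 and 3 below it throughout, those whose smallest ratio was largest, without genes having a spot at the most frequent value) were chosen with earlier results of these data known. Figures were drawn with matplotlib 3.10.9.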

Additional observations from a re-analysis of the deposited data

How the results depend on the processing

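The count of 0 genes at limma's adjusted p of 0.05 held over all genes tested under each alternative fit: either array of pair 1 left out, the median of probes, every probe as a feature, recentred or rescaled arrays, spots at the most frequent value left out (7 of the 9 genes tested, without Sox10 and Mbp), arrays as independent, a dye term, robust eBayes, and platform symbols alone (chosen after seeing the data, 8 tested, without Aldh1l1). It also held with the pair as a replicate block at a set correlation of 0.5. Adjusted p ranged from 0.682 to 1 for single genes. Under each of these fits 0 of all features passed as well, so that the count says nothing particular about the 9 genes. Of 105 values of single genes under these settings, 103 kept their sign; Gfap turned to 0.16 with a dye term and ranged from -0.41 to 0.45 with 1 array left out. Sizes moved more: Aqp4 went from -0.51 to -0.10 without replicate 2, -0.23 with the median of probes and -1.22 over measured spots, Pdgfra from -0.21 to -1.27 with a dye term, and Gfap from -0.28 to -0.78 over measured spots. The fit with a dye term took the 3 arrays as separate values, so that pair 1, with 2 arrays, weighed more than pair 2. Its values for Pdgfra and Gfap therefore cannot be read as an effect of the dyes alone. The count of genes past 1.5-fold on every array was 0 to 3 with 1 array left out, being 3 without replicate 3, where the pair 1 arrays alone remained, and 0 without replicate 1 or 2. The lineage difference of 0.77 ranged from 0.72 to 1.81 with 1 array left out and from 0.47 (without Sox10) to 0.97 (medians of genes) otherwise, and was 0.51 over measured spots. No brightness was used here, so that dim spots could not be filtered out beyond those at the most frequent value.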

Other observations

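Outside the 9 genes, 11 genes of the 6 lists were past 1.5-fold in 1 direction on all 3 arrays, and none passed limma's test. Those above 0 were Nfia, Pou3f1 and the precursor genes Ptprz1, Xylt1 and Tnr. Tnr, a matrix glycoprotein of oligodendrocyte precursors and interneurons named here after its values were seen, read 2.93, 2.53 and 0.90. Those below 0 were the myelin genes Mal and Lpar1, the neural crest genes Foxd3 and Gfra3, the ventral gene Ebf1 and Ptgds, a prostaglandin D synthase of the leptomeninges, at -5.50, -5.35 and -2.41. The 3 of 24 precursor genes past the threshold above 0 compare with 1.12% of all features, and the 2 of 25 myelin genes below 0 with 1.73%, as a description without a test.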
